A study of Mus musculus with 9 samples.

Results

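Zbtb16, a gene that glucocorticoid hormones switch on in many tissues, was described here in mouse kidney together with 7 other genes of the glucocorticoid response. These were Fkbp5, Tsc22d3, Sgk1, Klf9, Mt1, Mt2 and Nr3c1, so the set holds 8 of the 54532 genes counted. Zbtb16 was chosen because its level was far higher in Trex1-/- kidneys after SN-011 than in wild-type kidneys. Its values are therefore given as a description with no test, and no p-value is given for any of the 8 genes in the comparison of SN-011 with wild type. The other 7 genes were listed as known glucocorticoid responders and were tested in the remaining comparisons.

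PolyA-selected kidney RNA was sequenced from 3 groups of 3 libraries, all labelled C57BL/6J. The groups were wild type (WT), for which the labels name no treatment, Trex1-/- given PBS, and Trex1-/- given SN-011, an antagonist of the adaptor STING. TREX1 is a DNA exonuclease, and without it the DNA sensor cGAS signals through STING to interferon. The Trex1-/- mice were 1 month old at the start and received intraperitoneal SN-011 at 10 mg/kg, or PBS with 1% Tween 80 as vehicle, daily for 2 weeks. Trex1 was deleted in the whole animal, the Trex1-/- mice were bred from heterozygotes, and the wild-type mice were purchased. Genotype, breeding source and handling therefore cannot be told apart in the comparisons with wild type. The labels neither give sex nor say that each library came from its own animal, so p-values measure only the spread between these libraries.

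Glucocorticoids such as corticosterone enter the cell and bind the glucocorticoid receptor, the product of Nr3c1, which a chaperone complex with HSP90 holds in the cytoplasm. The bound receptor moves to the nucleus and binds glucocorticoid response elements, pairs of inverted half-sites near the genes it switches on. In kidney, the hormone acts along the nephron on gluconeogenesis and ion transport, and the enzyme HSD11B2 inactivates it in the distal nephron, where aldosterone acts through the related mineralocorticoid receptor.

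The libraries held 16118813 to 21928965 counts and 23180 to 24657 genes with reads. Kidney identity was clear, with the summed level of 4 proximal tubule markers at 6563 to 8244 CPM, the count scaled to library size with TMM factors, in every library. Trex1 had 0 counts in all 9 libraries, wild type included, so it does not check the labels. The sex-linked genes divided the libraries unevenly. Reads of 4 Y-linked genes were abundant in WT replicate 3, in all 3 PBS libraries and in SN-011 replicate 2, whereas Xist was abundant in WT replicates 1 and 2 and SN-011 replicates 1 and 3. All PBS libraries thus fell in the Y-linked class. SN-011 replicate 2 stood apart in chaperone genes. Its Hsp90aa1 level was 1046 CPM against 398 to 498 CPM in the other 8 libraries, and its Hsp90ab1 level was 2628 against 1284 to 1589 CPM. The part of sex-linked class and of this library in the results was not tested.

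**Figure D1:**
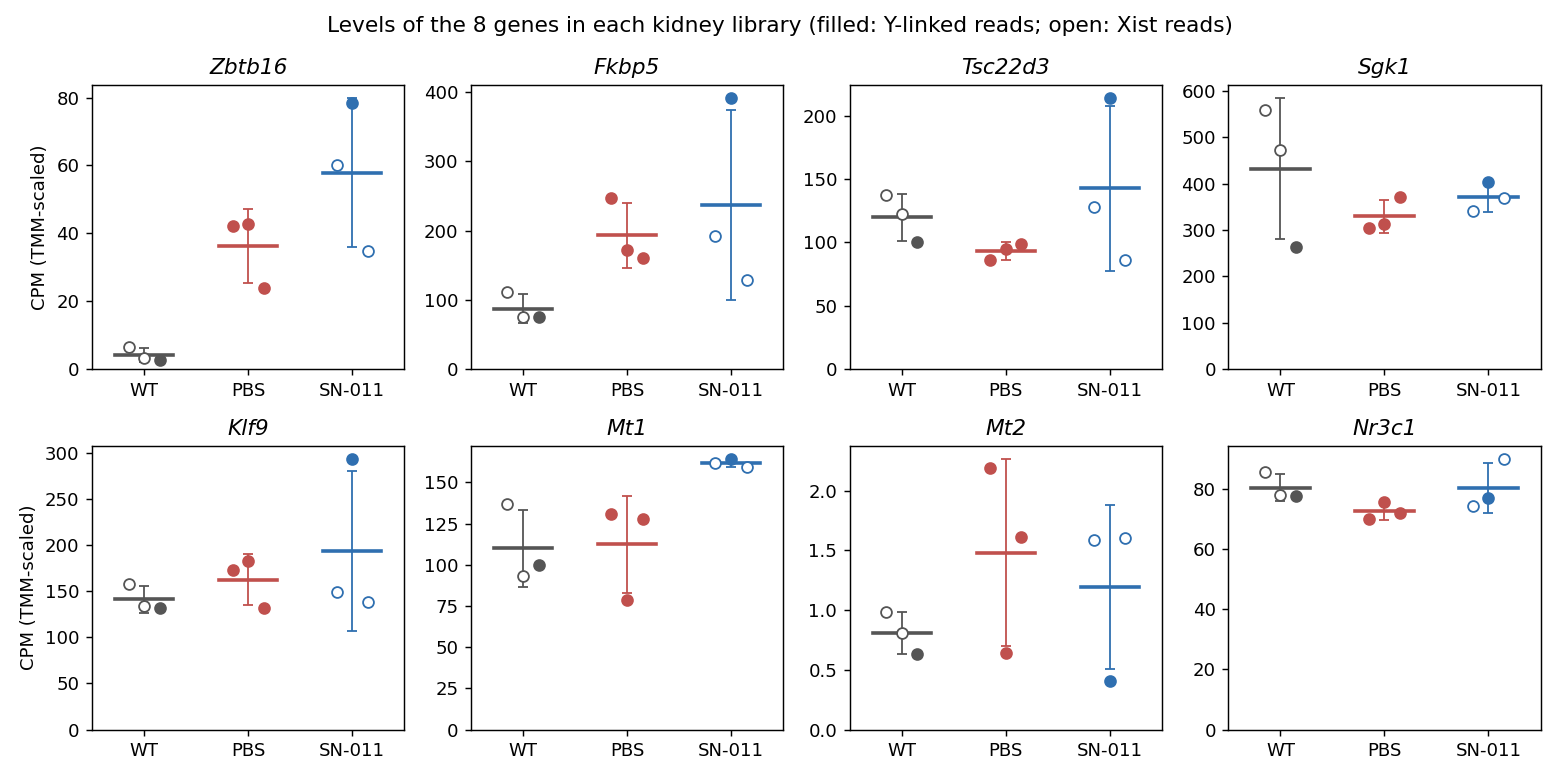
Level of each of the 8 genes in each kidney library, in TMM-scaled CPM on a linear axis from 0. Points are libraries, filled where Y-linked genes had reads and open where Xist had, with horizontal lines for group means and vertical bars for the SD (n = 3). Zbtb16 lay between 2.60 and 6.50 CPM in wild type and between 23.8 and 78.5 CPM in the 6 Trex1-/- libraries.

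Zbtb16 encodes PLZF, a transcriptional repressor with zinc fingers that is one of the most strongly glucocorticoid-inducible genes known. The gene (ENSMUSG00000066687) lies on the minus strand at chr9:48654297-48836222 in GRCm38, 60.2 Mb from Trex1 on the same chromosome. Its level in wild-type replicates 1 to 3 was 6.50, 3.29 and 2.60 CPM, from 138, 73 and 45 counts. In the Trex1-/- PBS libraries it was 42.3, 42.7 and 23.8 CPM, and in the Trex1-/- SN-011 libraries 60.3, 78.5 and 34.9 CPM. Every Trex1-/- library was above every wild-type library, and the PBS and SN-011 ranges overlapped. Group means were 4.13 ± 2.08 CPM in wild type, 36.2 ± 10.8 CPM after PBS and 57.9 ± 21.9 CPM after SN-011 (SD, n = 3).

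The fitted log2 difference of Zbtb16 was 3.80 (SE 0.40) between SN-011 and wild type, the value for which the gene was chosen, or 13.9-fold. Between PBS and wild type it was 3.12 (SE 0.40), or 8.70-fold. SN-011 and PBS differed by 0.68 (SE 0.35). Across the 16 alternative settings the log2 difference between SN-011 and wild type ran from 3.51 to 4.28, that between PBS and wild type from 2.89 to 3.60, and that between SN-011 and PBS from 0.39, without SN-011 replicate 2, to 0.94, without SN-011 replicate 3. Within the libraries with Xist reads, 2 SN-011 libraries had a mean of 47.6 CPM against 4.90 CPM in 2 wild-type libraries, a log2 difference of 3.28. Within those with Y-linked reads, the 3 PBS libraries had a mean of 36.2 CPM and the single SN-011 library 78.5 CPM, against 2.60 CPM in the single wild-type library.

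**Figure D2:**
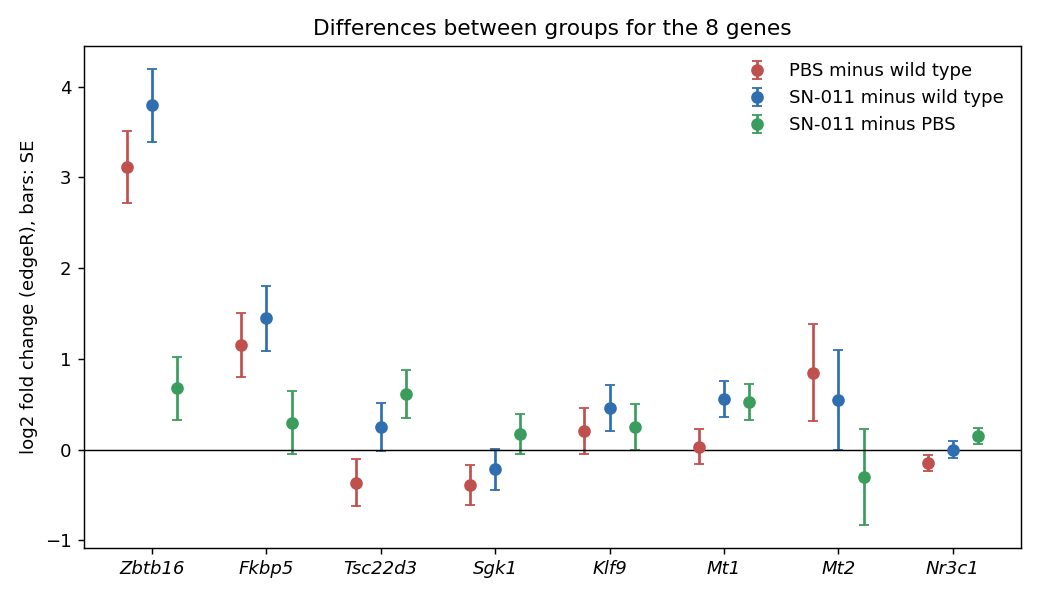
Log2 fold change of each of the 8 genes between the groups, from the edgeR fit, with bars for 1 SE. Zbtb16 stands at 3.12 and 3.80 against wild type and Fkbp5 at 1.15 and 1.45, while the other 6 genes lie between -0.39 and 0.85 in all 3 comparisons.

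Fkbp5 encodes FKBP51, a co-chaperone of HSP90 that lowers the hormone affinity of the receptor and closes a negative feedback loop, and its transcript is a widely used reporter of receptor activity. Its level was 111, 74.5 and 75.2 CPM in wild type, 247, 172 and 161 CPM after PBS, and 192, 391 and 128 CPM after SN-011. All 6 Trex1-/- libraries were above all 3 wild-type libraries, as for Zbtb16, and SN-011 replicate 2 was the highest. Between PBS and wild type the log2 difference was 1.15 (SE 0.36), or 2.22-fold, with an adjusted p of 0.156 by edgeR's quasi-likelihood test, so Fkbp5 did not pass the threshold of 0.05. The call depended on the libraries and on the test. It passed without SN-011 replicate 2 (1.15, adjusted p = 0.0167) and in 4 of the 16 alternatives in all, with adjusted p from 6.74e-06 to 0.565. With a term for Y-linked reads the log2 difference was 0.72. It was 0.30 (SE 0.35, adjusted p = 0.787) between SN-011 and PBS and turned to -0.27 without SN-011 replicate 2. Against wild type, SN-011 differed by 1.45 (SE 0.36), or by 0.88 without that library. Within the libraries with Xist reads the log2 difference between SN-011 and wild type was 0.79, and within those with Y-linked reads 2.38 from 1 library each.

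The upstream windows of the members are shown because a response element is the route by which the receptor acts directly on a gene. The windows came from RefSeq on GRCm38.p6 and reached at most 250 bases upstream of an annotated start, with 13 windows for 6 of the 8 genes. Zbtb16 and Nr3c1 had no entry. The full element was searched as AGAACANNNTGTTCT and the half-site as AGAACA, both on either strand, and each full element holds 2 half-sites by construction. A full element lay in 1 of the 13 windows, upstream of a start of Sgk1, against 3 of 32851 windows of the same table (0.00913%). Half-sites lay in 4 of the 13, and 16.1% of all windows held one. In the Sgk1 window capitals mark half-sites, the last 2 of which form the full element, and the Fkbp5 window is shown beside it as one with neither.
Sgk1, chr10:21993640-21993889 (+): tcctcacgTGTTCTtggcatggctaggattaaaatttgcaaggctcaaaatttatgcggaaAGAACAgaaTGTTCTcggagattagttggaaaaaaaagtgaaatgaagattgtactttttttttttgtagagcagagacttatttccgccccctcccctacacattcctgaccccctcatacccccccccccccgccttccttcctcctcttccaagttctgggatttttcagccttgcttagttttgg
Fkbp5, chr17:28486150-28486399 (-): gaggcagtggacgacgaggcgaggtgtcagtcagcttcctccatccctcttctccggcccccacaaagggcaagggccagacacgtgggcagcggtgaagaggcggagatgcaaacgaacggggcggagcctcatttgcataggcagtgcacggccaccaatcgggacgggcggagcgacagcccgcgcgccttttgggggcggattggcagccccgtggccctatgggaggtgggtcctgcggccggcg
Such a match is a description of the letters, and no match in a window of this length says nothing of elements farther away.

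Sgk1 encodes a kinase that aldosterone and glucocorticoids induce and that raises sodium transport in the distal nephron. It lies at chr10:21882184-21999903 on the plus strand. In wild type it was at 559, 473 and 264 CPM, after PBS at 304, 314 and 371 CPM, and after SN-011 at 341, 404 and 369 CPM. Replicates 1 and 2 of wild type were the highest of all libraries and replicate 3 the lowest, so the wild-type range enclosed the other 6 libraries. The log2 difference was -0.39 (SE 0.22, adjusted p = 0.444, edgeR) between PBS and wild type. Without WT replicate 3 it was -0.65 with an adjusted p of 0.0337, past the threshold. That fit sets wild-type libraries with Xist reads against PBS libraries with Y-linked reads, so sex-linked class and group cannot be told apart there. The difference was -0.17 without WT replicate 1 (adjusted p = 0.823) and -0.12 with the term for Y-linked reads (adjusted p = 0.902). It was 0.17 (SE 0.22, adjusted p = 0.805) between SN-011 and PBS. Within the Xist libraries the log2 difference of Sgk1 between SN-011 and wild type was -0.54, with means of 355 and 516 CPM, and it was 0.61 within the Y-linked libraries.

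Tsc22d3 encodes GILZ, a leucine zipper protein that carries part of the anti-inflammatory effect of glucocorticoids. Its level was 137, 122 and 100 CPM in wild type, 85.8, 94.9 and 99.1 CPM after PBS, and 128, 214 and 86.4 CPM after SN-011. All PBS libraries were below all wild-type libraries, with less than 2 CPM between the nearest pair, and the SN-011 libraries spanned both groups. The log2 difference was -0.36 (SE 0.26, adjusted p = 0.555, edgeR) between PBS and wild type, opposite in sign to those of Zbtb16 and Fkbp5. For SN-011 against PBS it was 0.61 (SE 0.26, adjusted p = 0.416), and 0.20 without SN-011 replicate 2. The difference of Tsc22d3 between SN-011 and wild type was 0.25 (SE 0.26), and -0.17 without that library. It was -0.30 within the Xist libraries and 1.09 within the Y-linked ones, from 1 library each.

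Klf9 encodes a zinc-finger transcription factor induced by glucocorticoids and thyroid hormone. It was at 158, 134 and 132 CPM in wild type, 173, 183 and 132 CPM after PBS, and 149, 293 and 139 CPM after SN-011. A single library, SN-011 replicate 2, lay far above the others, and the remaining 8 libraries shared one range. The log2 difference between SN-011 and wild type was 0.46 (SE 0.26), and 0.02 without that library. It was 0.20 (SE 0.25, adjusted p = 0.753, edgeR) between PBS and wild type and 0.25 (SE 0.25, adjusted p = 0.749) between SN-011 and PBS, with -0.18 in the latter without SN-011 replicate 2. Within the Xist libraries SN-011 and wild type differed by -0.02, and within the Y-linked libraries, where replicate 2 is the single SN-011 library, by 1.15.

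Mt1 and Mt2 encode metallothioneins, small cysteine-rich proteins that bind zinc and copper and that are induced by metals through the factor MTF1 as well as by glucocorticoids. Mt1 was at 137, 93.3 and 100.02 CPM in wild type, 131, 78.5 and 128 CPM after PBS, and 162, 164 and 160 CPM after SN-011. The 3 SN-011 libraries were close to one another and above all 6 other libraries. Between SN-011 and PBS the log2 difference was 0.53 (SE 0.19), or 1.44-fold, with an adjusted p of 0.354 in the edgeR fit, and it ran from 0.33 to 0.66 across the 16 alternatives without being called in any. The difference between SN-011 and wild type was 0.56 (SE 0.19), and within the sex-linked classes it was 0.51 with Xist reads and 0.71 with Y-linked reads. PBS and wild type differed by 0.03 (SE 0.19, adjusted p = 0.959). Of all genes, 7.72% were higher in every SN-011 library than in every PBS library.

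The Mt1 window, cut at 243 bases, is shown for its metal response element core, searched as TGCACNC or TGCGCNC on both strands and marked in capitals. A core lay in 21.4% of all windows. The Mt2 window, which is not printed, held 3 cores, and 1.26% of all windows held 3 or more.
Mt1, chr8:94178839-94179081 (+): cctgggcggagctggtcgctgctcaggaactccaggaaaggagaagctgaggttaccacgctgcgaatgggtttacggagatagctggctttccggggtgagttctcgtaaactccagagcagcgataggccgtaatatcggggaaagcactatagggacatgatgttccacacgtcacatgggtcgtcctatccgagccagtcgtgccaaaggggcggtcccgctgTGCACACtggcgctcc

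Mt2 had only 7 to 36 counts per library, or 0.41 to 2.19 CPM, and no groups were separated. With PBS against wild type its log2 difference was 0.85 (SE 0.54, adjusted p = 0.497, edgeR), and with SN-011 against PBS -0.30 (SE 0.53, adjusted p = 0.867). With the term for Y-linked reads these were 1.72 and -1.24, neither of them called, and the first was 0.45 without PBS replicate 1. SN-011 and wild type differed by 0.55 (SE 0.55), by 0.76 within the Xist libraries and by -0.53 within the Y-linked ones. Its level is uncertain. In the annotation, 432 of its 588 exonic bases (73.5%) are shared with the opposite-strand gene Gm45774, which had 24 counts in all 9 libraries together. Among 454 genes whose exonic bases all lie within exons of the opposite strand, 5 (1.10%) had any count, against 56.6% of all genes. The strand setting of the counting was not stated. Per kilobase of exon, Mt2 had a mean of 1.38 CPM in wild type and Mt1 88.3 CPM, a comparison that the shared bases may affect for Mt2.

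Nr3c1 encodes the glucocorticoid receptor itself, whose level is known to fall in many cell types under sustained hormone. It was the steadiest member, at 85.4, 78.0 and 77.7 CPM in wild type, 70.0, 75.6 and 71.9 CPM after PBS, and 74.4, 76.8 and 89.8 CPM after SN-011. The PBS libraries were all below the wild-type libraries, by about 2 CPM at the nearest pair, and the SN-011 libraries overlapped both. Its log2 difference was -0.15 (SE 0.09, adjusted p = 0.480, edgeR) between PBS and wild type and 0.15 (SE 0.09, adjusted p = 0.571) between SN-011 and PBS, with no difference of the means between SN-011 and wild type (-0.00, SE 0.09).

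In length-normalised levels, Mt1 and Sgk1 were the highest members in wild type, at 88.3 and 88.1 CPM per exonic kilobase. Klf9 followed at 29.3, Tsc22d3 at 27.6, Nr3c1 at 10.5, Fkbp5 at 9.18, Mt2 at 1.38 and Zbtb16 at 0.78. With SN-011, Zbtb16 stood at 10.96 and Nr3c1 at 10.5 on the same scale. The wild-type ranges overlapped within each of the pairs Mt1 and Sgk1, Klf9 and Tsc22d3, Nr3c1 and Fkbp5, and Mt2 and Zbtb16, and not between pairs. Zbtb16 had the lowest mean of the members in wild type, and after SN-011 its range over the libraries included that of the receptor gene.

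None of the 7 members other than Zbtb16 was called between PBS and wild type, where edgeR's test called 313 of 16646 genes (1.88%). Fkbp5 alone had an unadjusted p under 0.05, as had 15.2% of all genes. Groups were fully separated for 3 of the 7 genes, namely Fkbp5 above and Tsc22d3 and Nr3c1 below, against 25.3% of all genes. With SN-011 against PBS none of the 7 was called, and 0% of all genes were. Mt1 alone of the 7 did not overlap between these groups, where 16.1% of all genes did not. Tsc22d3 and Mt1 had an unadjusted p under 0.05, as had 11.4% of genes (1905). DESeq2's Wald test called 183 genes in that comparison, and none of the 7. For SN-011 against wild type, 1.28% of all genes were called, 18% had an unadjusted p under 0.05 and 21.7% did not overlap, from which nothing is read here, since the set was chosen on that comparison. The comparisons share groups of libraries, so the values of a gene in them are not independent of one another.

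A list of 34 further genes known to be induced by glucocorticoids, of which 32 had enough reads to test, had differences in both directions. None was called in any of the 3 comparisons by the edgeR fit of all 9 libraries with 3 group means and the low-count filter, here called the filtered 3-group fit. Without SN-011 replicate 2 the calls were 1, 5 and 7 for PBS against wild type, SN-011 against PBS and SN-011 against wild type, while 4.55%, 3.05% and 2.21% of all genes were called. At an unadjusted p under 0.05, 3 were higher and 7 lower between PBS and wild type, 4 were higher and 2 lower between SN-011 and PBS, and 3 were higher and 4 lower between SN-011 and wild type. Of all 16646 genes, 1270 were higher and 1262 lower at that level between PBS and wild type. The shares of all genes in either direction were 15.2%, 11.4% and 18% in that order. The median log2 fold changes of the list were -0.04, 0.03 and -0.08 in the same order, and those of all genes tested were 0.00, -0.01 and -0.00. The list holds genes with other inducers too, among them fasting and cytokines. Counts under other tests were larger. DESeq2's Wald test called 1, 1 and 5 of the 32 in that order, with 4.36%, 1.1% and 4.9% of all genes called, and edgeR's exact test called 7 between PBS and wild type, 3 higher and 4 lower, with 8.27% of all genes called.

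**Figure D3:**
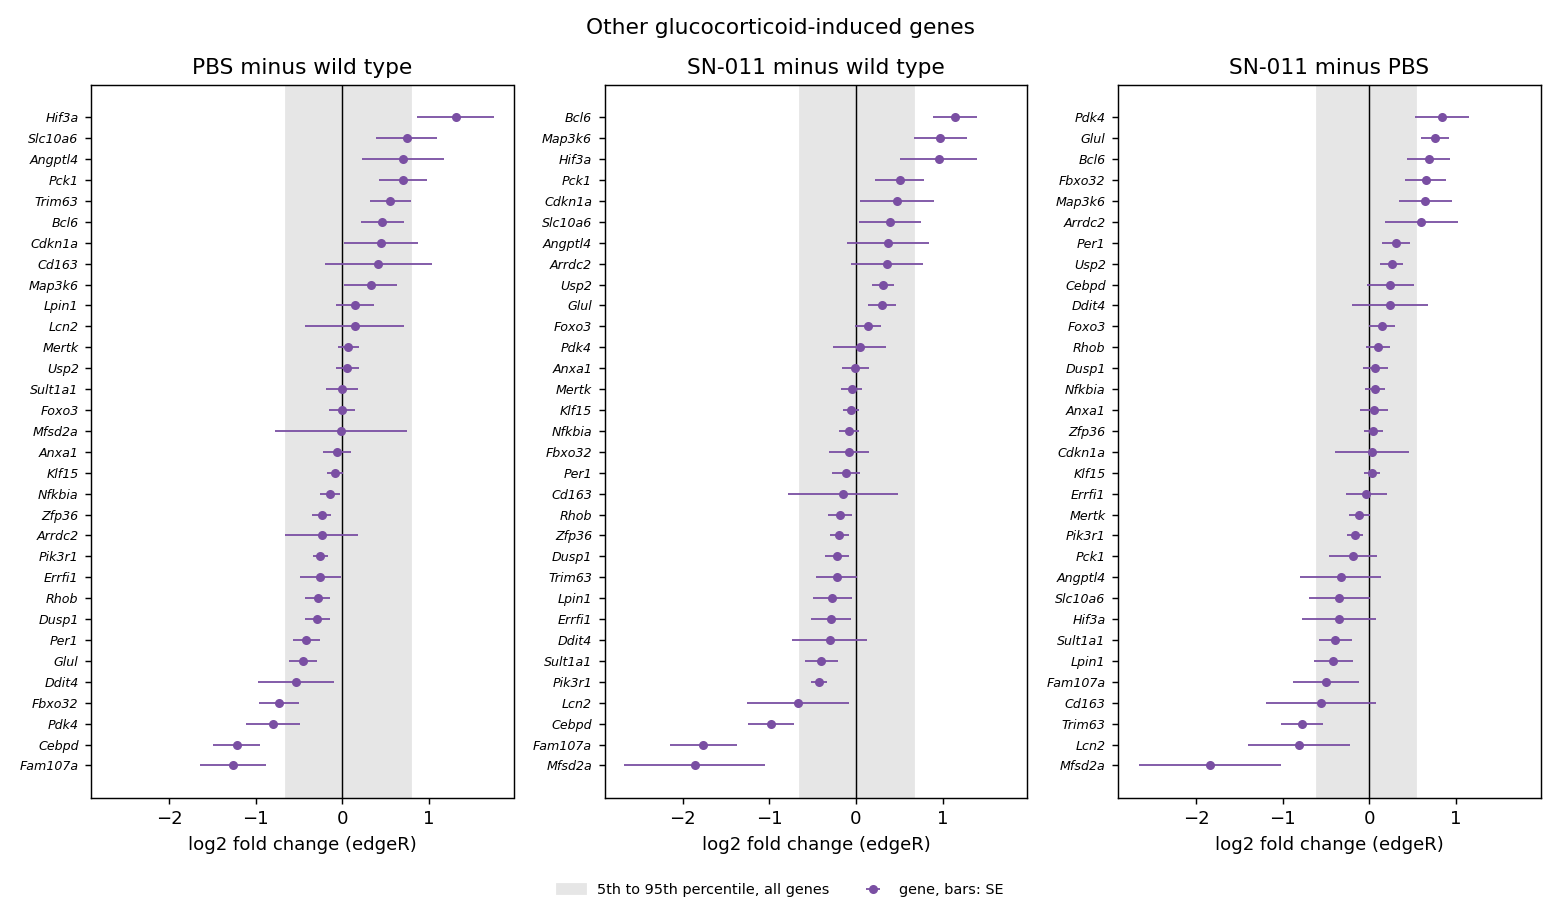
Log2 fold changes of 32 further glucocorticoid-induced genes in the 3 comparisons, sorted within each panel, with bars for 1 SE. The grey band spans the 5th to 95th percentile of all genes tested, and genes lie on both sides of 0 in each panel, with medians of -0.04, -0.08 and 0.03 from left to right.

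Among these genes, those with the largest separation between PBS and wild type went both ways. Hif3a, a hypoxia-inducible factor subunit, had a log2 difference of 1.31 (SE 0.44, adjusted p = 0.194, edgeR). Its levels were 1.62 to 3.06 CPM in wild type and 4.41 to 8.27 CPM after PBS. Pck1, which encodes the rate-limiting enzyme of gluconeogenesis and is abundant in the proximal tubule, had 0.70 (SE 0.28, adjusted p = 0.275) and the transporter gene Slc10a6 0.74 (SE 0.35, adjusted p = 0.352). Pck1 was at 4138, 1971 and 1803 CPM after PBS and 1498 to 1738 CPM in wild type, with PBS replicate 1 far above the rest. On the other side, Cebpd, a transcription factor of the acute-phase response, was at 39.6 to 77.3 CPM in wild type and 23.7 to 29.8 CPM after PBS. The wild-type libraries with Xist reads were at 69.2 and 77.3 CPM and the one with Y-linked reads at 39.6 CPM. Cebpd had a log2 difference of -1.22 (SE 0.27, adjusted p = 0.0539), and it was called by DESeq2's Wald test and not with the Y-linked term. Fbxo32, a ubiquitin ligase gene of muscle atrophy, had -0.73 (SE 0.23, adjusted p = 0.169), and Ddit4, an inhibitor of mTORC1, -0.54 (SE 0.43, adjusted p = 0.604).

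Between SN-011 and PBS, Glul, the gene of glutamine synthetase, was at 1006 to 1350 CPM against 625 to 768 CPM. Its log2 difference of 0.76 (SE 0.16, adjusted p = 0.210) was not called by the filtered 3-group fit and was called by the Wald test, the exact test and the edgeR fit without the filter. Bcl6, a transcriptional repressor with the same BTB and zinc-finger architecture as Zbtb16, had 0.68 (SE 0.25, adjusted p = 0.343) and Fbxo32 0.65 (SE 0.24, adjusted p = 0.343). Mfsd2a, a lysolipid transporter gene, had -1.84 (SE 0.82, adjusted p = 0.430), with 1.81, 18.5 and 0.30 CPM in the SN-011 libraries against 20.6 to 27.3 CPM after PBS, so replicates 1 and 3 were far below PBS and replicate 2 was close to it. The lipocalin gene Lcn2 and the ubiquitin ligase gene Trim63 were also lower without overlap, as 8.42% of all genes were, at -0.81 (SE 0.59, adjusted p = 0.632) and -0.78 (SE 0.24, adjusted p = 0.288). Without SN-011 replicate 2, 5 genes of the list were called, with Glul higher and Mfsd2a, Trim63, Lpin1 and Cdkn1a lower.

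Between SN-011 and wild type, Bcl6 had the highest value, 1.14 (SE 0.25, adjusted p = 0.0608, edgeR), at 22.7 to 28.9 CPM in wild type and 39.2, 82.7 and 43.6 CPM after SN-011. Pck1 had 0.50 (SE 0.28, adjusted p = 0.377). Fam107a, an actin-associated gene of the stress response, was at 180, 180 and 62.4 CPM in wild type and 33.7, 61.1 and 30.0 CPM after SN-011, a log2 difference of -1.76 (SE 0.39, adjusted p = 0.0608). Pik3r1, the regulatory subunit of PI3-kinase, had -0.42 (SE 0.09, adjusted p = 0.0551), and Mfsd2a had -1.86 (SE 0.81, adjusted p = 0.267). No gene of the list passed in this comparison in the filtered 3-group fit. Without SN-011 replicate 2, 7 were called, with Bcl6 higher and Mfsd2a, Errfi1, Ddit4, Fam107a, Rhob and Cebpd lower, and with the Y-linked term 3 were called, with Bcl6 higher and Fam107a and Pik3r1 lower, where 3.94% of all genes were. The replicate block called 2, Fam107a and Cebpd, both lower, with 1.39% of all genes called.

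**Figure D4:**
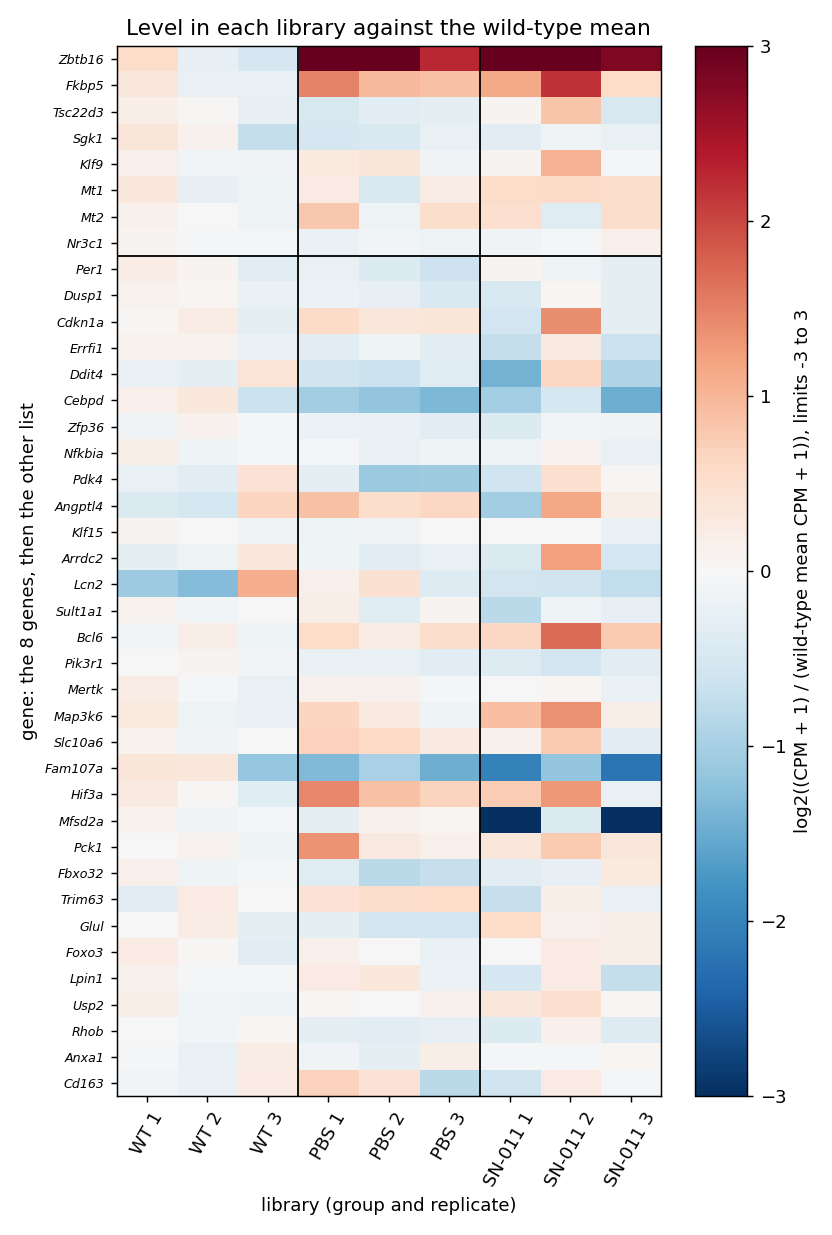
Log2 ratio of each library to the wild-type mean, computed on CPM + 1, for the 8 genes (above the line) and 32 further glucocorticoid-induced genes (below it), with columns for the 9 libraries and a colour scale that saturates at both ends. Zbtb16 is red in all 6 Trex1-/- columns, and SN-011 replicate 2 is the highest column for 4 of the 7 other members and 12 of the 32 further genes.

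The libraries of the SN-011 group differed among themselves. SN-011 replicate 2 held the highest of the 9 values for 4 of the 7 members other than Zbtb16, namely Fkbp5, Tsc22d3, Klf9 and Mt1. It held the highest value for 12 of the 32 further genes (37.5%), among them Bcl6, and for 16.4% of all genes. The same library had the highest Hsp90aa1 and Hsp90ab1 levels and was the only SN-011 library with Y-linked reads, and what part either had was not tested.

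Of 15 genes of receptor action and steroid handling, none was called in any comparison by the filtered 3-group edgeR fit of all 9 libraries, with 0, 3 and 4 at an unadjusted p under 0.05 between PBS and wild type, SN-011 and PBS, and SN-011 and wild type. Of all genes, 15.2%, 11.4% and 18% were under it in that order. The Wald test called none of the 15 either. Nr3c2, the mineralocorticoid receptor gene, had log2 differences of -0.11 (SE 0.15, adjusted p = 0.786) between PBS and wild type and 0.02 (SE 0.15, adjusted p = 0.974) between SN-011 and PBS. Hsd11b1, whose enzyme regenerates active hormone, had 0.05 (SE 0.36, adjusted p = 0.964) and -0.41 (SE 0.36, adjusted p = 0.704), and Hsd11b2 had -0.26 (SE 0.12, adjusted p = 0.335) and 0.05 (SE 0.12, adjusted p = 0.901). Serpina6, which encodes the corticosteroid-binding globulin of plasma, was at 0.12 to 1.46 CPM in wild type and PBS and at 8.37, 0.17 and 336 CPM after SN-011. Its high mean thus came almost wholly from SN-011 replicate 3, and it was named after its values were seen. It was called higher without SN-011 replicate 2 or without the filter in both comparisons of SN-011, and by the exact test and with the Y-linked term against wild type, where 0.411% to 3.94% of all genes were called. Of the 15 genes, 7 had their highest level in SN-011 replicate 2. Of 10 distal nephron targets of the mineralocorticoid receptor, such as the sodium channel subunits Scnn1a, Scnn1b and Scnn1g, none was called in any comparison by the filtered 3-group edgeR fit of all 9 libraries or by the Wald test. In the edgeR fit 3, 0 and 3 of the 10 had an unadjusted p under 0.05, against 15.2%, 11.4% and 18% of all genes. Without WT replicate 3, Kcnj1, a potassium channel gene, was called lower in PBS than in wild type, as Sgk1 was, where 2.68% of all genes were called. Without that library, sex-linked class and group cannot be told apart between PBS and wild type.

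In the list of 10 further genes of the metal and oxidative response, Slc30a1 alone was called by the filtered 3-group edgeR fit of all 9 libraries. It encodes the zinc exporter ZnT1, a target of MTF1 like the metallothioneins. Its level was 73.5, 74.5 and 89.1 CPM in wild type, 102, 106 and 91.3 CPM after PBS, and 137, 120 and 112 CPM after SN-011. The 3 groups did not overlap, and the order was wild type, PBS, SN-011. Slc30a1 was higher with SN-011 than in wild type by a log2 difference of 0.64 (SE 0.11, adjusted p = 0.0261, edgeR), where 0.823% of all genes were called higher. It was called in 11 of the 16 alternatives. Adjusted p was 0.120 without WT replicate 1 or 2, 0.0557 without PBS replicate 1, 0.0538 without SN-011 replicate 1 and 0.0946 with only the 2 groups fitted. Its other differences were 0.33 (SE 0.11, adjusted p = 0.182) between PBS and wild type and 0.31 (SE 0.11, adjusted p = 0.338) between SN-011 and PBS. Mtf1 itself had 0.11 (SE 0.16, adjusted p = 0.759) between SN-011 and wild type, and Mt3, at 0.12 to 1.13 CPM, -0.11 (SE 0.61, adjusted p = 0.947). Gclc, a subunit of the enzyme that limits glutathione synthesis, had means of 209 CPM in wild type, 376 CPM in PBS and 343 CPM in SN-011. Its log2 differences from wild type were 0.84 (SE 0.19, adjusted p = 0.0579) in PBS and 0.71 (SE 0.19, adjusted p = 0.0964) in SN-011, and the Wald test and the edgeR fit without the filter called both, with 1.96% to 4.9% of all genes called. Without SN-011 replicate 2, Gclc and Slc39a14 were called higher between PBS and wild type, and Gclm and Slc39a14 lower between SN-011 and PBS, where 4.55% and 3.05% of all genes were called.

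Clock genes were examined because corticosterone follows a daily rhythm and sets peripheral clocks, and the time of day of collection was not stated in the sources used here. None of 16 was called by the filtered 3-group edgeR fit of all 9 libraries in any comparison, with 3, 7 and 7 at an unadjusted p under 0.05. Without SN-011 replicate 2 the same test called 6 between SN-011 and PBS, with Per2, Ciart, Per3, Bhlhe41 and Nr1d2 higher and Npas2 lower, where 3.05% of all genes were called. It called 2 between SN-011 and wild type, Npas2 and Arntl, both lower, against 2.21% of all genes. Between SN-011 and PBS, 13 of the 16 had log2 fold changes above 0 and 7 were higher without overlap, where 7.72% of all genes were, and DESeq2's Wald test called 5 (Per2, Ciart, Per3, Bhlhe41 and Nr1d2), with 1.1% of all genes called. The edgeR fit without the filter called the same 5 genes, with 0.411% of all genes called, and the exact test called 4 (Ciart, Bhlhe41, Nr1d2 and Nr1d1), with 0.805%. SN-011 replicate 1 held the highest value of all libraries for 9 of the 16 clock genes, and for 13.3% of all genes. Per1, which is both a clock gene and a receptor target, had -0.41 (SE 0.16, adjusted p = 0.253) between PBS and wild type and 0.30 (SE 0.16, adjusted p = 0.502) between SN-011 and PBS. Dbp, an output gene of the clock, varied widely within groups, with 25.3, 12.1 and 59.6 CPM in wild type, 35.9, 15.3 and 14.8 CPM after PBS, and 93.3, 13.5 and 76.2 CPM after SN-011. Arntl, which encodes the clock activator BMAL1, was at 5.66, 22.7 and 11.2 CPM in the same SN-011 libraries, low where Dbp was high. Nr1d1, a clock repressor, was at 31.8 to 77.6 CPM in wild type and 81.3 to 95.1 CPM after SN-011, with a log2 difference of 0.88 (SE 0.29, adjusted p = 0.164). The Wald test and the edgeR fit without the filter called it and Nr1d2 in that comparison. None of 10 immediate early genes, which handling stress induces, was called by the same filtered fit in any comparison. In that fit 1, 2 and 5 of the 10 had an unadjusted p under 0.05, against 15.2%, 11.4% and 18% of all genes. The Wald test and the edgeR fit without the filter called Fosb higher between SN-011 and PBS, and Fosb and Klf6 higher between SN-011 and wild type, where 1.1% and 4.9% of all genes were called by the Wald test and 0.411% and 1.96% without the filter. Fosb and Klf6 were also called against wild type without SN-011 replicate 3, with 1.6% of all genes. Fosb was at 8.77, 2.89 and 0.59 CPM in SN-011 replicates 1 to 3, against 0.45 to 0.94 CPM in the wild-type and PBS libraries. Its SN-011 replicate 3 thus lay within the range of the other groups. Klf6 overlapped wild type, at 47.5 to 78.5 CPM after SN-011 against 37.4 to 49.4 CPM.

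Markers of other cell types were set beside the members, since in whole kidney a change in cell numbers and a change in RNA per cell cannot be told apart. The enzymes of the adrenal cortex, the source of corticosterone, were near 0 in every library, and the summed level of 6 adrenal genes was 4.97 to 8.19 CPM with no separation of groups. The 4 macrophage markers summed to 106 to 114 CPM in wild type, 149 to 171 CPM after PBS and 93.3 to 136 CPM after SN-011, and 4 T and NK cell markers to 4.43 to 6.41, 10.1 to 19.2 and 4.41 to 13.3 CPM. The 4 B and plasma cell markers summed to 7.80 to 8.49 CPM in wild type, 19.6 to 24.2 CPM in the PBS libraries and 13.5 to 32.7 CPM in those of SN-011, with Jchain alone among them separated between PBS and wild type. All 4 macrophage and all 4 T and NK cell markers were higher without overlap in PBS than in wild type, as 13% of all genes were. The complement gene C1qa was called there, with a log2 difference of 0.94 (SE 0.16, adjusted p = 0.0133, edgeR). Jchain, the joining chain of secreted antibodies, was called in PBS against wild type at 1.99 (SE 0.36, adjusted p = 0.0175) and in SN-011 against wild type at 2.24 (SE 0.36, adjusted p = 0.0185). All 4 macrophage markers were lower without overlap in SN-011 than in PBS, at -0.72 to -0.43, as 8.42% of all genes were, and none was called. All 3 leukocyte sums were thus higher in PBS than in wild type. Of 4 proximal tubule markers, 3 were lower without overlap in PBS, as 12.3% of all genes were, and the glucose transporter gene Slc5a2 was called, with a log2 difference of -0.71 (SE 0.13, adjusted p = 0.0163, edgeR). All 4 loop, distal and collecting duct markers were below 0 there, at -0.42 to -0.19, and none was called. The part of these differences in the members' levels was not tested. In SN-011, the B and plasma cell sum was also above wild type in every library, with Jchain alone at 11.1 to 30.7 CPM. Cd79a was lower there without overlap, at 0.17 to 0.41 CPM against 0.47 to 0.75 CPM in wild type, as 10% of all genes were. The means of Mzb1 and Ms4a1 were lower too, at 2.54 and 0.16 CPM against 2.84 and 0.40 CPM. Zbtb16 is also expressed in innate-like lymphocytes, and their part in its level was not tested. The summed adipocyte markers were 51.9 to 170 CPM in wild type, 25.2 to 76.2 CPM after PBS and 17.1 to 74.8 CPM after SN-011.

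The genes whose levels followed Zbtb16 most closely were named by Pearson's r of log2 CPM over the 9 libraries, among 14837 genes with a mean of at least 1 CPM. They were Atl2 (r = 0.978), Zfp91 (0.977), Zhx3 (0.961), mt-Tc (0.960), Tor1aip2 (0.955), Suz12 (0.953), Smchd1 (0.952), Sh3rf1 (0.951), Frmd4b (0.951) and Usp42 (0.950). Fkbp5 ranked 81st with r = 0.899. The other members had 0.583 (Klf9), 0.498 (Mt1), 0.221 (Mt2), 0.128 (Tsc22d3), -0.198 (Sgk1) and -0.258 (Nr3c1). Of the 32 further genes, Bcl6 (0.754), Map3k6 (0.753), Hif3a (0.735), Pck1 (0.655) and Usp2 (0.645) had values above that of Klf9. Of the 32, 15 were above 0 and 17 below, the lowest being Pik3r1 (-0.868), Fam107a (-0.650), Cebpd (-0.643) and Zfp36 (-0.622). These values describe 9 libraries in which wild type stands apart from the rest, so genes that separate wild type from the rest can score high. Over deviations from the group means, r with Zbtb16 was 0.801 for Fkbp5, 0.745 for Klf9, 0.669 for Tsc22d3, 0.442 for Sgk1, 0.186 for Mt1, -0.117 for Nr3c1 and -0.285 for Mt2, in 9 libraries that include SN-011 replicate 2. For the 32 further genes it ran from -0.544 (Anxa1) to 0.969 (Mertk). It was 0.743 for Cebpd and 0.717 for Fam107a, whose means were lower in both Trex1-/- groups than in wild type. None of the 10 approached the fold of Zbtb16. Frmd4b, for instance, went from a mean of 44.6 CPM in wild type to 83.7 CPM after PBS and 90.8 CPM after SN-011, and Zhx3, a zinc-finger homeobox repressor, from 111 to 154 and 190 CPM.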

How the data were processed

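The deposited values were raw counts per Ensembl gene for 9 kidney libraries, with 54532 identifiers each. The authors trimmed reads with Trimmomatic, aligned them with HISAT2 at default settings and counted uniquely mapped pairs with featureCounts. The labels name mm10, and tool versions are not given in the sources used here. Of the identifiers, 54495 matched GENCODE vM21. Counts were fitted in R 4.3.3 with edgeR 4.0.16, using TMM scaling and filterByExpr (minimum count 10, total 15), which kept 16646 genes. A quasi-likelihood model with 1 mean for each group was fitted to the 9 libraries together. P-values were Benjamini-Hochberg adjusted over all genes tested, with a threshold of 0.05, and the SE came from the F statistic. The fit was tested on simulated data with 200 changed genes, where it recovered 71% of 2-fold and 93% of 4-fold changes in PBS against wild type, with 15 false calls among 16380 genes.

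Libraries held 16118813 to 21928965 counts, and Mt2 had 7 to 36 of them in a library. Alternatives were DESeq2 1.42.0 size factors and Wald test, no filter, edgeR's exact test, only the 2 groups compared, a replicate block, a term for Y-linked reads, and leaving out each library. The members and gene lists were chosen with earlier results of these data known. Named genes were the 8 members, genes set for each list, listed genes past the threshold, the 3 highest and 3 lowest further glucocorticoid-induced genes without overlap in each comparison, and the 10 genes most correlated with Zbtb16. Serpina6, Hsp90aa1, Hsp90ab1, Slc5a2, Kcnj1, the further genes named for their correlation with Zbtb16, and genes named as called by another test or setting were chosen after their values were seen.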

Additional observations from a re-analysis of the deposited data

How the results depend on the processing

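Zbtb16 kept its direction in all 16 alternatives in each comparison, and its difference between SN-011 and PBS (0.68) ran from 0.39 without SN-011 replicate 2 to 0.94 without SN-011 replicate 3. Called genes between PBS and wild type (313) numbered 707 without the filter, 726 by the Wald test, 1376 by the exact test, 751 with only the 2 groups compared, 198 with the Y-linked term and 153 to 774 when a library was left out. Between SN-011 and PBS (0) they were 127 without the filter, 183 by the Wald test, 134 by the exact test and 0 to 519 with a library left out, the highest without SN-011 replicate 2. Between SN-011 and wild type (213) the same settings gave 607, 816 and 324, with 43 for only the 2 groups, 656 for the Y-linked term and 38 to 376 with a library left out. Of the 7 members other than Zbtb16, 1 was called between PBS and wild type (Fkbp5) without the filter, by the exact test and with only the 2 groups, and 0 to 1 with a library left out (Sgk1 without WT replicate 3, Fkbp5 without SN-011 replicate 2). Of the 32 further genes, the calls between PBS and wild type were 3 without the filter, 1 by the Wald test, 7 by the exact test, 2 with only the 2 groups, 1 with the Y-linked term and 0 to 3 with a library left out. Between SN-011 and PBS 1 was called without the filter, by the Wald test and by the exact test, and 0 to 5 with a library left out, and between SN-011 and wild type 7 were called without SN-011 replicate 2 and 3 with the Y-linked term. The cause of these changes was not tested.

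Same-numbered libraries did not deviate together in every pair of groups (r from -0.294 to 0.242), so the numbers were not taken as pairs. With the replicate block, 312, 0 and 231 genes were called in the 3 comparisons, and 1 of the 32 further genes (Cebpd) between PBS and wild type and 2 (Fam107a and Cebpd) between SN-011 and wild type.

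Some small log2 fold changes turned sign, none of them called. With the Y-linked term Sgk1 was at -0.041 between SN-011 and PBS and Klf9 at -0.14 between PBS and wild type. With a library left out, the difference between SN-011 and PBS ran from -0.27 to 0.60 for Fkbp5, -0.18 to 0.45 for Klf9 and -0.66 to 0.10 for Mt2. The negative values of Fkbp5 and Klf9 came without SN-011 replicate 2, and the positive ones of Mt2 without that library (0.10) or PBS replicate 1 (0.099). For Mt1, PBS and wild type differed by -0.10 to 0.23, with negative values without WT replicate 2 or 3 or PBS replicate 1 or 3. Mt2 had 7 to 36 counts a library, and 2 of the 34 further genes had too few reads to test.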
